A study of Mus musculus with 6 samples.

Results

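The genes described here are 10 regulators and markers of the epithelial-mesenchymal transition: the cadherin genes Cdh1 and Cdh2, the intermediate filament gene Vim, the transcription factor genes Zeb1, Zeb2, Snai1, Snai2, Twist1 and Grhl2, and the splicing regulator gene Esrp1. They were taken by symbol from a table of 55487 mouse genes, which held a row for each of the 10. Gene expression was measured by poly(A)-selected RNA sequencing in 4T1 cells, a transplantable mammary carcinoma line from a BALB/c mouse, kept for 12 h with 10 µM cepharanthine (CEP, an alkaloid of Stephania plants) or with an equal volume of its solvent, dimethyl sulfoxide (DMSO). Each group had 3 libraries, and no genetic change or other agent is labelled in either group. The labels do not say whether libraries of a group came from separate cultures, so the p-values measure the spread between these libraries, which may be technical. The question addressed is how transcript levels in this cell line differ after exposure to the drug.

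In the epithelial-mesenchymal transition, epithelial cells loosen their cell-cell contacts and gain features of migratory cells. SNAIL, ZEB and TWIST proteins are DNA-binding factors that repress epithelial genes, Cdh1 among them, while GRHL2 and ESRP1 act on the epithelial side, the former as a transcription factor and the latter as a regulator of alternative splicing. Carcinoma cells can carry both sets of transcripts at once, a mixed state often called partial or hybrid.

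SNAIL and ZEB proteins bind E-boxes with the letters CACCTG, which were searched on both strands. Of the 10 genes, Vim, Zeb2, Snai1 and Twist1 matched an entry in the RefSeq promoter table (GRCm38.p6). The 250 bases before the start of the 2 transcription factor genes with a single listed start are shown because Snai1 holds this hexamer and Twist1 does not. They lie at chr2:167537945-167538194 and chr12:33957421-33957670, both on the plus strand. The hexamer is in capitals, and its first base lies at position -126 of Snai1, where -1 is the base just before the start.
Snai1: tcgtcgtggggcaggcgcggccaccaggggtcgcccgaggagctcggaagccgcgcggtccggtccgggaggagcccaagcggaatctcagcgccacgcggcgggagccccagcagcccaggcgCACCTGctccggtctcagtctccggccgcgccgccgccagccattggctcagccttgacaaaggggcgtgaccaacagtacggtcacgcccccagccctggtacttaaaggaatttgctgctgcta
Twist1: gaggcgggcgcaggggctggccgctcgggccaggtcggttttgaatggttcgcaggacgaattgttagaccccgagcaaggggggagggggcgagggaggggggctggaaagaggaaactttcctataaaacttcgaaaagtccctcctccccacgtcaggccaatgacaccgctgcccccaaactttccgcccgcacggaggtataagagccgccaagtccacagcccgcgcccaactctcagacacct
Neither Vim nor any of the listed Zeb2 windows held the hexamer. It was present in 5657 of 32851 windows of the same length in the table (17.2%), so a match is common, and it is a description of letters rather than of binding.

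Library totals ran from 15299261 to 19655010 counts. Across the 13405 genes tested, 5125 changed (adjusted p under 0.05, Benjamini-Hochberg, in edgeR's quasi-likelihood test), which was 38.2% of those tested, with 20.1% higher and 18.2% lower in CEP. CEP replicate 1 stood apart: on the first principal component of log2 expression it scored -10.1, CEP replicates 2 and 3 scored -28.5 and -30.4, and the DMSO libraries scored 21.9 to 23.8. Values without it are given beside the calls and directions it changed, for the 10 genes, the gene lists below and the genes with the smallest adjusted p in each. The calls of the other marker genes were not checked in this way. Among markers of mammary epithelium, Krt8, Krt18 and Epcam were at 1298 ± 12.1, 1238 ± 9.09 and 172 ± 8.67 CPM in DMSO (mean ± SD, n = 3). CPM is a gene's count over its TMM-scaled library total, expressed per 10 to the power of 6 reads. Other markers of that list were near 0: Cldn3 and Pgr had 0 or 1 counts per library, Krt5 had 0, and Trp63 and Acta2 had 0 to 5. These levels show epithelial transcripts but do not identify the line. Of the markers of other cell types, Ptprc (leukocytes) had 0 to 3 counts per library and Pecam1 (endothelium) 1 to 3. Pdgfra, a fibroblast marker, was at 65.8 ± 3.41 CPM in DMSO and 94.0 ± 8.02 CPM in CEP, while Thy1, Lum and Col3a1 had 0 counts in all libraries. Of the other fibroblast markers, Col1a1 had 8 to 19 counts per library, Postn 2 to 16 and Twist2 1 to 10. The summed level of the 12 fibroblast markers ran from 63.2 to 70.3 CPM in DMSO and from 86.1 to 102 CPM in CEP, that of the 12 leukocyte markers from 22.6 to 25.8 and from 29.7 to 37.0 CPM, and that of the 8 endothelial markers from 7.10 to 8.72 and from 4.61 to 5.49 CPM. Pdgfra, Cd14 and Egfl7 made up most of their lists' sums, and the part of other cells in the results was not tested.

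The 4T1 cultures held both epithelial and mesenchymal transcripts. RNA from whole cultures cannot show whether the same cells carried both. Per kilobase of exon, Vim was the most abundant of the 10 genes, at 1494 ± 8.88 CPM per kilobase in DMSO (SD, n = 3) and 1377 ± 119 in CEP, which placed it at rank 22 of 13405 tested genes. Cdh1 followed at 105 ± 3.50 CPM per kilobase in DMSO and 138 ± 12.3 in CEP, at rank 585. These ranks depend on the exon lengths given for all genes. By CPM without length, Vim was at rank 12 and Cdh1 at rank 207. Twist1 stood at 39.0 ± 2.48 CPM per kilobase in DMSO and Snai1 at 13.4 ± 1.98, each above the next gene in every library. Zeb2, Esrp1 and Grhl2 formed a group at 6.80 ± 0.204, 6.34 ± 0.483 and 6.34 ± 0.457 CPM per kilobase in DMSO and did not differ beyond their spread there. In CEP they were at 6.87 ± 0.422, 7.94 ± 0.963 and 5.86 ± 0.209, with Esrp1 above Grhl2 in every library. Zeb1 was far lower, at 0.161 ± 0.0373 CPM per kilobase in DMSO, so that Zeb2 exceeded Zeb1 by 32.4 to 52.5 times within the 6 libraries. These levels use the exon lengths in the authors' table, and with the longer merged exons of GENCODE release M21 Vim would be 664 and Zeb2 3.13 CPM per kilobase over all libraries instead of 1436 and 6.84, with Esrp1 (4.18) and Grhl2 (3.50) then above Zeb2.

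**Figure D1:**
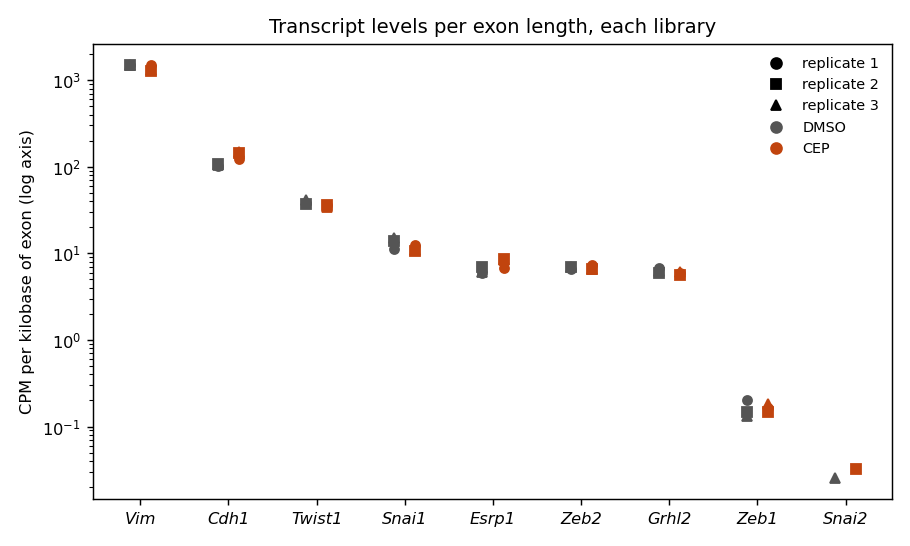
Level of each gene in each library, in CPM per kilobase of exon on a log axis, for the 9 genes with any count. Points are libraries, coloured by group and shaped by replicate number, and libraries at 0 are not drawn. Vim and Cdh1 lie above the regulators, and Zeb1 and Snai2 lie far below them.

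Cdh2 and Snai2 could not be compared. Cdh2, which encodes N-cadherin of mesenchymal and neural cells, had 0 counts in all 6 libraries. The upper ends of the 95% intervals of its level were 0.0713 CPM over the CEP libraries and 0.0712 CPM over the DMSO libraries (counting error only). Snai2, which encodes the SNAIL relative SLUG, had 1 count in CEP replicate 2, 1 count in DMSO replicate 3 and 0 in the other libraries. Both were below the low-count filter, so 8 of the 10 genes were tested, and no fold is given for these 2.

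Of the 8 tested genes, Cdh1 and Esrp1 rose, none fell and 6 did not pass (38.2% of all tested genes changed). Their median log2 fold change was -0.05, against 0.01 over all tested genes. At an unadjusted p under 0.05 the count was 3, with Twist1 added. RNA from whole cultures cannot tell a higher level per cell from a larger share of cells with the transcript.

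Cdh1 encodes E-cadherin, the adhesion protein of epithelial junctions. Its level was 447, 476 and 471 CPM in DMSO replicates 1, 2 and 3 and 548, 632 and 649 CPM in CEP replicates 1, 2 and 3. All CEP libraries lay above all DMSO libraries, with CEP replicate 1 closest to the DMSO range. This lack of overlap was shared with 49.9% of all tested genes. The log2 fold change was 0.39 ± 0.0611 (SE), a rise of 31.2% with a 95% interval of 19.9% to 43.7% (edgeR, adjusted p = 2.11e-04). Cdh1 passed under each of the 16 alternatives tried, the log2 fold change being lowest when CEP replicate 3 was left out (0.34) and highest when CEP replicate 1 was (0.45). The gene is ENSMUSG00000000303, chromosome 8, 106603351 to 106670246, plus strand of GRCm38.p6, with 16 merged exons in GENCODE release M21.

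Esrp1 encodes an RNA-binding protein that sets epithelial splicing patterns. It stood at 22.1, 25.4 and 22.8 CPM in DMSO replicates 1, 2 and 3 and at 25.2, 31.7 and 31.1 CPM in CEP replicates 1, 2 and 3. CEP replicates 2 and 3 were above every DMSO library, whereas CEP replicate 1 lay just under DMSO replicate 2, so the groups overlapped. The log2 fold change was 0.32 ± 0.0966 (SE), a rise of 25.1% with a 95% interval of 8.42% to 44.4% (edgeR, adjusted p = 0.0163). The call was lost without CEP replicate 2, CEP replicate 3, DMSO replicate 1 or DMSO replicate 3 (adjusted p = 0.0785, 0.0676, 0.0754 and 0.0696 in edgeR, over all alternatives 6.36e-05 to 0.0785). Esrp1 (ENSMUSG00000040728, chromosome 4, 11331933 to 11386783, minus strand) shares 127 exon bases with Gm26663 on the opposite strand. Gm26663 has no row among the authors' counts. Reads of such overlaps cannot be told apart if counting ignored strand.

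Grhl2, the gene of a grainyhead factor that activates epithelial junction genes (ENSMUSG00000022286, chromosome 15, 37233036 to 37363569, plus strand), showed no change that passed. Its level was 33.8, 29.4 and 30.9 CPM in DMSO replicates 1, 2 and 3 and 29.3, 27.9 and 29.9 CPM in CEP replicates 1, 2 and 3. The groups overlapped, and the log2 fold change of -0.11 ± 0.0765 (SE), with a 95% interval of -0.28 to 0.05, did not pass (edgeR adjusted p = 0.262). It was -0.06 without DMSO replicate 1. Grhl2 passed under none of the 16 alternatives, DESeq2 and limma-voom among them (adjusted p from 0.158 to 0.618, both ends in edgeR). Its exons overlap those of Gm16136 on the opposite strand by 169 bases, a gene with 4 to 16 counts per library against 429 to 604 for Grhl2.

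**Figure D2:**
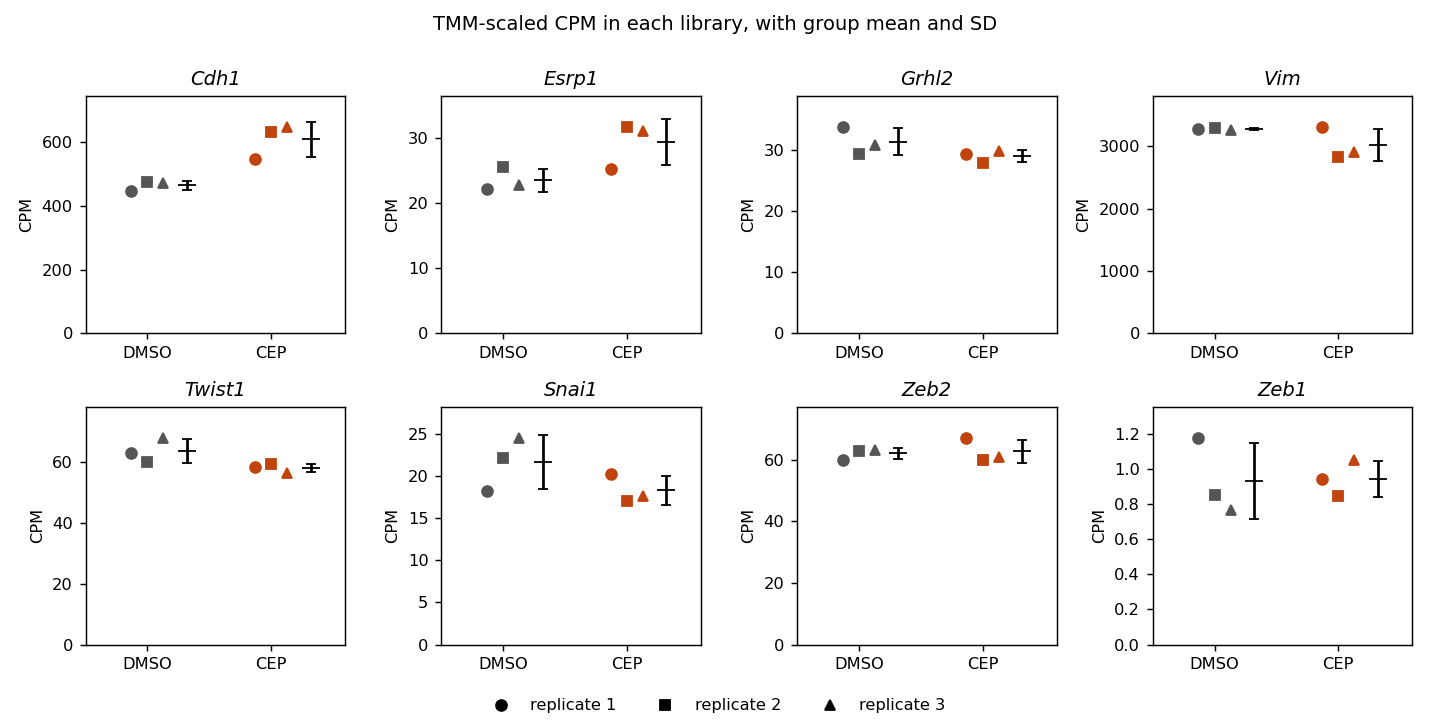
TMM-scaled CPM of the 8 tested genes in each library (symbols by replicate number), with the mean and SD of each group (n = 3) as a bar beside the points. All axes start at 0. Cdh1 is higher in each CEP library, while the other genes overlap between the groups except Twist1, whose CEP libraries all lie just under the DMSO libraries. Over all tested genes, 49.9% showed no overlap.

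Vim encodes vimentin, the intermediate filament protein of mesenchymal cells (ENSMUSG00000026728, chromosome 2, 13573927 to 13582826, plus strand). It was steady in DMSO, at 3275, 3297 and 3258 CPM in replicates 1, 2 and 3, and unequal in CEP, at 3317, 2828 and 2913 CPM. CEP replicate 1 was above all DMSO libraries, and CEP replicates 2 and 3 were below all of them. The log2 fold change over all libraries was -0.12 ± 0.0605 (SE, 95% interval -0.25 to 0.01) and did not pass (edgeR adjusted p = 0.140). Without CEP replicate 1 it was -0.20 and passed (edgeR adjusted p = 2.37e-06, over all alternatives 2.37e-06 to 0.472).

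Snai1 encodes SNAIL, a short-lived repressor of Cdh1 (ENSMUSG00000042821, chromosome 2, 167538195 to 167542814, plus strand). Its level was 18.2, 22.2 and 24.6 CPM in DMSO replicates 1, 2 and 3 and 20.3, 17.1 and 17.6 CPM in CEP replicates 1, 2 and 3. CEP replicates 2 and 3 were below all DMSO libraries and CEP replicate 1 lay within their range. The log2 fold change of -0.24 ± 0.112 (SE, 95% interval -0.48 to 8.45e-04) did not pass (edgeR adjusted p = 0.107). It passed without CEP replicate 1 (-0.34, edgeR adjusted p = 0.00778) and without DMSO replicate 1 (-0.35, adjusted p = 0.0256), while without DMSO replicate 3 it was -0.14 (adjusted p = 0.433, over all alternatives 0.00778 to 0.433).

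Twist1 encodes a basic helix-loop-helix factor of mesodermal and neural crest development (ENSMUSG00000035799, chromosome 12, 33957671 to 33959829, plus strand). It stood at 62.9, 59.8 and 67.8 CPM in DMSO replicates 1, 2 and 3 and at 58.4, 59.1 and 56.3 CPM in CEP replicates 1, 2 and 3. All CEP libraries were below all DMSO libraries, by a narrow margin at DMSO replicate 2, a lack of overlap shared with 49.9% of all tested genes. The log2 fold change was -0.13 ± 0.0610 (SE, 95% interval -0.26 to -0.00337) and did not pass (edgeR unadjusted p = 0.0451, adjusted p = 0.0970). With upper quartile scaling it was -0.16 (edgeR adjusted p = 0.0419) and without CEP replicate 1 also -0.16 (adjusted p = 0.0294), while without DMSO replicate 3 it was -0.08 (adjusted p = 0.387, over all alternatives 0.0294 to 0.387).

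The ZEB genes, whose products carry zinc finger clusters and a homeodomain, showed no difference that passed. Zeb2 stood at 59.9, 63.0 and 63.3 CPM in DMSO replicates 1, 2 and 3 and at 67.1, 60.0 and 61.0 CPM in CEP replicates 1, 2 and 3. The groups overlapped, and the 95% interval of the log2 fold change (0.02 ± 0.0606, SE) ran from -0.11 to 0.15. The sign was not stable, at -0.05 without CEP replicate 1 and -0.01 without DMSO replicate 1. Zeb1 had 20, 13 and 15 counts in DMSO replicates 1, 2 and 3 and 18, 13 and 18 counts in CEP replicates 1, 2 and 3. At this depth its interval was wide, from -0.68 to 0.74 around 0.03 ± 0.331 (SE). Leaving out 1 library at a time gave -0.11 to 0.23, and the edgeR adjusted p-values were 0.856 for Zeb2 and 0.956 for Zeb1. Zeb2os, an antisense gene that shares 653 exon bases with Zeb2, had 0 to 5 counts per library. Zeb2 is ENSMUSG00000026872, chromosome 2, 44983632 to 45117395, minus strand, and Zeb1 is ENSMUSG00000024238, chromosome 18, 5591860 to 5775467, plus strand.

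**Figure D3:**
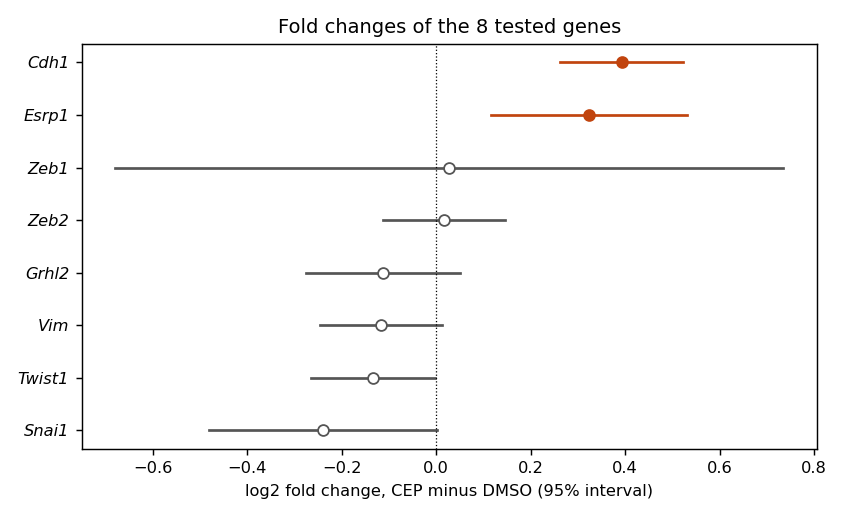
Log2 fold change of the 8 tested genes, CEP minus DMSO, with 95% intervals. Filled symbols mark adjusted p under 0.05. The intervals of Cdh1 (0.26 to 0.52) and Esrp1 (0.12 to 0.53) lie above 0, and that of Zeb1 is the widest.

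Against the DMSO mean on the log2(CPM + 0.5) scale, CEP replicate 1 differed less than the other CEP libraries for Cdh1 (0.24, against 0.44 and 0.48 in CEP replicates 2 and 3) and for Esrp1 (0.11, against 0.43 and 0.40). The same held for Snai1 (-0.08, against -0.33 and -0.28), and for Vim it lay on the other side of the DMSO mean (0.02, against -0.21 and -0.17). Twist1 did not show this order, at -0.12 in CEP replicate 1 and -0.10 and -0.17 in CEP replicates 2 and 3. Nor did Grhl2 (-0.10, against -0.17 and -0.07) or Zeb2 (0.11, against -0.05 and -0.02). Zeb1 was at 0.02 in CEP replicate 1, with CEP replicates 2 and 3 on opposite sides of the DMSO mean (-0.08 and 0.12). Without CEP replicate 1, Cdh1 and Esrp1 rose and Vim, Snai1 and Twist1 fell, so that 3 genes fell where 0 did with all libraries, and over all genes 3514 of 13650 fell where 2434 of 13405 had. The part of whatever set this library apart was not tested.

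**Figure D4:**
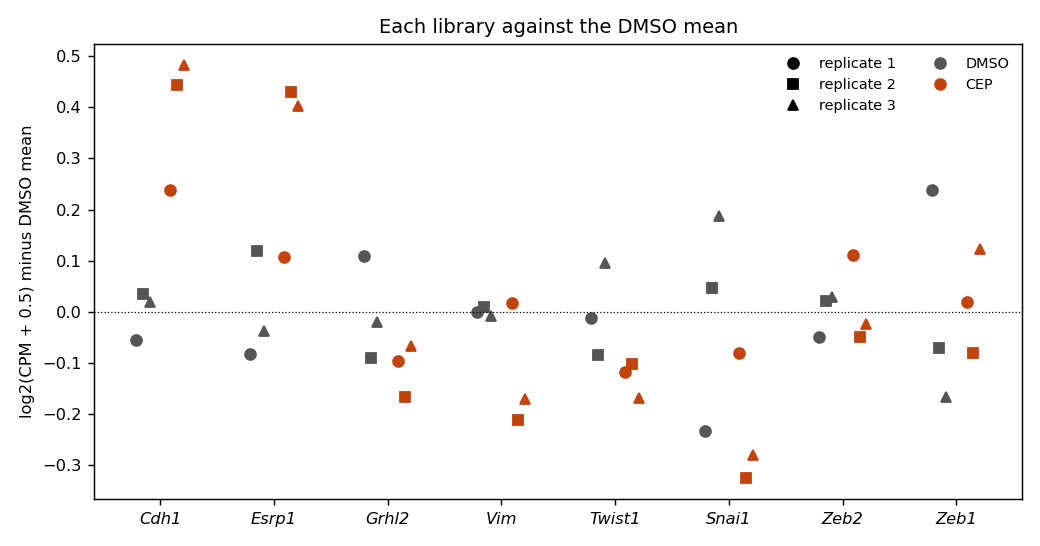
Log2(CPM + 0.5) of each library minus the mean of the DMSO libraries, for the 8 tested genes, coloured by group and shaped by replicate number. CEP replicate 1 (orange circle) sits at 0.24 for Cdh1 and 0.11 for Esrp1, below the other CEP libraries, and at 0.02 for Vim, above them.

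Ratios within a library do not depend on scaling between libraries. Reads per kilobase of Vim exceeded those of Cdh1 by 14.8, 14.0 and 14.0 times in DMSO replicates 1, 2 and 3 and by 12.2, 9.04 and 9.06 times in CEP replicates 1, 2 and 3. The ratio was thus lower in each CEP library. Its size rests on the authors' exon lengths, since the merged exons above give 664 for Vim and 117 for Cdh1 CPM per kilobase over all libraries, but the difference between groups does not. As log2 reads, Cdh1 minus Vim was -2.82 ± 0.0473 in DMSO and -2.31 ± 0.251 in CEP (SD, n = 3 each, difference 0.51, exact two-sided permutation p = 0.1, the smallest that 20 assignments allow, and 0.4 after Benjamini-Hochberg adjustment over the 4 pairs tested). Differences were 0.02 for Zeb1 to Zeb2, -0.15 for Grhl2 to Zeb1 and 0.28 for Esrp1 to Zeb1, with exact permutation p-values of 0.8, 0.4 and 0.4, and the groups overlapped in each. With 1 library left out they ran from -0.12 to 0.22 for Zeb1 to Zeb2, from -0.27 (without DMSO replicate 1) to -0.03 (without DMSO replicate 3) for Grhl2 to Zeb1, and from 0.07 (without DMSO replicate 1) to 0.39 for Esrp1 to Zeb1. Ratios to Cdh2 and to Snai2 were not tested because of their 0 counts.

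The genes whose profile over the 6 libraries was nearest to Cdh1, by root mean square difference of centred log2 CPM, were Adam17 (0.0189), Snx8 (0.0215) and Pck2 (0.0232). Adam17 encodes a membrane protease, Snx8 a sorting nexin and Pck2 the mitochondrial phosphoenolpyruvate carboxykinase, and their log2 fold changes were 0.39, 0.37 and 0.41. Nearest to Esrp1 were Pdcd4 (0.0202), Tmx2 (0.0220) and Mettl7a1 (0.0225), with log2 fold changes of 0.30, 0.31 and 0.31. These distances describe the 6 libraries and carry no test.

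Several other epithelial regulators rose. Of 14 tested transcription and splicing factors of this kind, 7 rose, 0 fell and 7 did not pass. This was 50% called, against 38.2% of all tested genes, and the median log2 fold change was 0.35. Ehf, an epithelial ETS factor, rose by 0.77 ± 0.0692 (log2 fold change ± SE), to 41.1 ± 1.11 CPM from 24.0 ± 0.684 CPM (mean ± SD). Klf4, a Krüppel-like factor of epithelial differentiation, rose by 0.75 ± 0.0704. Without CEP replicate 1, 1 gene fell. Of 28 tested epithelial effector genes, 20 rose, 4 fell and 4 did not pass (85.7% called), with a median of 0.46. Dsp, which encodes desmoplakin of desmosomes, rose by 0.71 ± 0.0679, and Cldn7, a tight junction claudin gene, by 0.70 ± 0.0753. Krt8, an epithelial keratin gene, fell from 1298 ± 12.1 to 857 ± 66.2 CPM (log2 fold change -0.60 ± 0.0564), and Tjp1, which encodes the junction scaffold ZO-1, fell (-0.36 ± 0.0506). Among the epithelial marker genes checked above, Krt18 fell (-0.26 ± 0.0463) and Epcam rose by 0.42 ± 0.0912. The keratin genes of the effector list split, since Krt7 also fell (-0.27 ± 0.0508) whereas Krt19 rose by 0.72 ± 0.147.

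Among the genes of catenins and other cadherin partners, more rose than fell. Of 18 tested catenin and cadherin partner genes, 7 rose, 1 fell and 10 did not pass, with a median of 0.10. The share called was 44.4%, near the 38.2% of all tested genes. Jup, which encodes plakoglobin, rose by 0.71 ± 0.0441, and Pkp3, which encodes plakophilin-3 of desmosomes, by 0.35 ± 0.0606. Vcl, which encodes vinculin, fell (-0.23 ± 0.0446). The counts were unsteady: 4 rose without DMSO replicate 1, and 3 fell without CEP replicate 1, 2 without CEP replicate 2 and 2 without DMSO replicate 1. The number that fell was 2 with RLE or library total scaling and 3 with upper quartile scaling, and the median was 0.06 without CEP replicate 2 and 0.05 without DMSO replicate 3. Of 24 other cadherin genes, 3 were tested and 13 had 0 counts throughout. Cdh17, an intestinal cadherin in normal tissue, was the gene called. It had 66, 31 and 32 counts in CEP replicates 1, 2 and 3 and 21, 28 and 22 in the DMSO libraries, so CEP replicate 1 was far above the rest (log2 fold change 0.83 ± 0.307, edgeR adjusted p = 0.0445). That call was lost on leaving out CEP replicate 1 or either of DMSO replicates 1 and 3, and with DESeq2, limma-voom, upper quartile scaling or the replicate number as a block (adjusted p up to 0.218). Its log2 fold change was 0.47 without CEP replicate 1. In the list, 1 gene fell when any of the CEP libraries or DMSO replicate 1 was left out.

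Of other transcription factors tied to the transition, 19 were tested. Among these 3 rose and 1 fell while 15 did not pass, with a median of 0.03, against 38.2% called and a median of 0.01 over all tested genes. Sox9, a factor of progenitor cells in mammary and other epithelia, rose by 1.27 ± 0.0564, to 132 ± 7.02 CPM in CEP against 54.9 ± 2.14 CPM in DMSO, and Runx2, the factor of bone-forming cells, rose by 0.35 ± 0.0616. Tcf4, which encodes an E-protein, fell (-0.29 ± 0.0454). Without CEP replicate 1 the median was -0.08 and 6 fell, and 2 fell without DMSO replicate 1 or with upper quartile scaling.

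The mesenchymal effector genes that passed split evenly. Of 32 in the list, 15 were tested and 5 had 0 counts in all libraries. Among the 15 tested, 5 rose and 5 fell while 5 did not pass, with a median of 0.03. This was 66.7% called, against 38.2% of all tested genes. Pdgfra, a receptor tyrosine kinase gene, rose by 0.52 ± 0.0668 and Itgav, which encodes integrin alpha-V, by 0.36 ± 0.0509. Sparc, which encodes the matrix protein osteonectin, fell (-0.32 ± 0.0565). The number that fell was 3 without CEP replicate 3 or without DMSO replicate 2, and the median turned to -0.12 with a filter at 1 CPM in 3 libraries and was 0.18 with a filter at a mean of 5 CPM. Of 8 tested relatives of Vim among intermediate filament genes, 1 rose, 4 fell and 3 did not pass (62.5% called), with a median of -0.23. Lmnb1, the lamin B1 gene, fell (-0.50 ± 0.0581), as did Nes, the nestin gene (-0.24 ± 0.0464), and Sync, which encodes syncoilin, rose by 0.89 ± 0.191.

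TGF-beta is a main inducer of the transition. Of 27 tested genes of its ligands, receptors, SMAD proteins and regulators, 7 rose, 5 fell and 15 did not pass, with a median of 0.00148. The share called was 44.4%, near the 38.2% of all tested genes. Smurf1, a ubiquitin ligase gene that limits SMAD signalling, rose by 0.71 ± 0.0460, and Tgif1, a SMAD corepressor gene, by 0.45 ± 0.0544. Tgfbr2, the type II receptor gene, fell (-0.30 ± 0.0456), as did Ltbp2, a latent TGF-beta binding protein gene (-0.31 ± 0.0493). The number that fell was 8 without CEP replicate 1, with a median of -0.08, and 3 without DMSO replicate 3.

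SNAIL and ZEB proteins are also set by protein turnover and act through corepressors. Of 31 tested genes of these, 1 rose, 8 fell and 22 did not pass, with a median of -0.09. This was 29.0% called, against 38.2% of all tested genes. Fbxl5, an F-box protein gene of SNAIL and iron-regulatory protein turnover, rose by 0.36 ± 0.0646. Hdac1, a histone deacetylase gene, and Cops2, a COP9 signalosome subunit gene, fell (-0.29 ± 0.0563 and -0.22 ± 0.0463). Without CEP replicate 1, 17 fell and 2 rose, and without DMSO replicate 3, 4 fell. With upper quartile scaling 14 fell. Of 18 tested genes with exons under ESRP control, 6 rose, 3 fell and 9 did not pass (50% called), with a median of 0.02. Lrrfip2 and Cd44, the hyaluronan receptor gene, rose by 0.40 ± 0.0574 and 0.28 ± 0.0486, while Fgfr2, the classic splicing target, and Rac1, a small GTPase gene, fell (-0.28 ± 0.0582 and -0.28 ± 0.0619). The number that fell was 6 without CEP replicate 1. Gene counts do not show which exons were used.

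**Figure D5:**
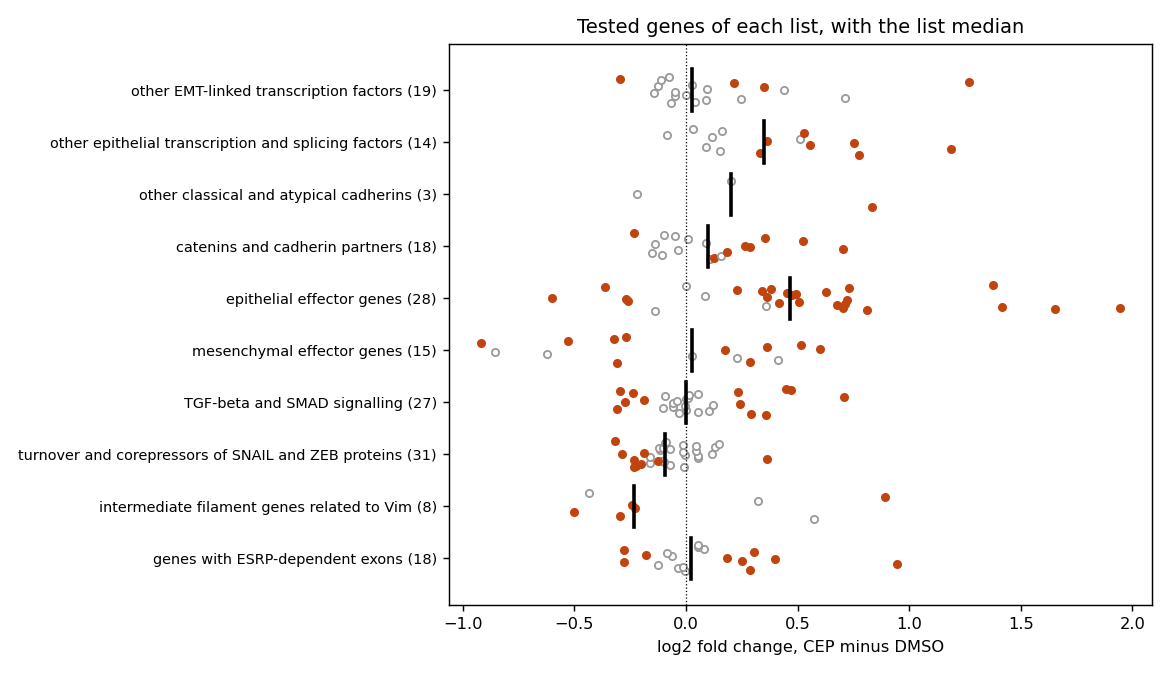
Log2 fold change, CEP minus DMSO, of each tested gene in 10 lists, with the number tested in brackets and the list median as a black bar. Filled points passed (adjusted p under 0.05) and open points did not. The medians run from -0.23 for intermediate filament genes to 0.46 for epithelial effector genes.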

How the data were processed

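Bulk poly(A) RNA of 6 4T1 libraries (3 CEP, 3 DMSO) was analysed. Although a label calls the source single-cell, the protocols describe bulk RNA. The authors deposited raw counts per Ensembl gene, with exon lengths in bases (the authors' other values) and GRCm38.p6 coordinates per the file headers. The submitters' processing notes list HISAT2, HISAT, HTSeq, DESeq2 and GRCm38 without roles. Libraries were made with a dUTP stranded kit per the labels' protocols. Which strand setting, annotation release and tool versions were used is not given in the sources used here. Samples were grouped by title.

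Genes passing edgeR filterByExpr (minimum count 10, minimum total 15) were TMM-scaled and tested with edgeR's robust quasi-likelihood test, group as the only term, Benjamini-Hochberg over 13405 genes, threshold 0.05. SE was taken as |log2 fold change| divided by sqrt(F). Levels per kilobase divide CPM by exon length. The software was edgeR 4.0.16, limma 3.58.1 and DESeq2 1.42.0 in R 4.3.3. The test was first tried on simulated counts. There it recovered 25 of 50 genes changed 1.25 times and 46 of 50 changed 1.5 times, so small changes were often missed in the simulation. Far fewer genes changed there than in the data, which makes the adjusted threshold stricter. These shares therefore do not give the recovery in the data. Of 178 calls in the simulated counts, 11 were false. Replicate pairs within a group gave chi-square per degree of freedom of 1.81 to 10.9 (genes with 20 or more summed counts), so none agreed within sampling noise.

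The members and lists were chosen with earlier results of these data known. Besides the 10 members, the text names from each list up to 2 passing genes per direction with the smallest adjusted p, the 3 nearest profiles of Cdh1 and Esrp1, and markers of cell type. A gene that this rule also names is not reported here. Thy1, Lum, Col3a1, Col1a1, Postn, Twist2, Cd14, Egfl7, the mammary markers Krt7, Krt19, Krt5, Krt14, Krt17, Trp63, Esr1, Cldn3, Cldn4, Pgr and Acta2, and the genes overlapping members were named after their values were seen. Alternatives were other scaling, DESeq2, limma-voom, other filters, the replicate number as a block, protein-coding genes, each library left out, a threshold of 0.01 and a prior count of 2 for ratios. Merged exon lengths were added after seeing the data.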

Additional observations from a re-analysis of the deposited data

How the results depend on the processing

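Cdh1 kept its direction and its call under all 16 alternatives. With 1 library left out, the number of the 8 tested genes that rose ran from 1 to 2 and the number that fell from 0 to 3. The number that rose was 1 at an adjusted p under 0.01, and the number that fell was 1 with upper quartile scaling. Over all genes, 1783 were higher and 1524 lower at 0.01, against 2691 and 2434 at 0.05. Zeb1 was not among the genes kept by a filter at 1 CPM in 3 libraries or at a mean of 5 CPM. Of 320 alternative counts for the gene lists, 284 were within 1.5 times the reported count. Upper quartile scaling moved the median of all genes to -0.02, from 0.01. The few counts of Zeb1 gave a wide interval, and those of Snai2 and Cdh2 allowed no comparison.

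Same-numbered libraries showed no shared deviation from their group means, with correlations of -0.0462, 0.0245 and -0.0354. So few libraries cannot settle whether the replicate numbers mark pairs. Fitting a replicate block, 2595 genes were higher and 2301 lower, Cdh1 stood at 0.39 and Esrp1 at 0.32, and no call among the 8 genes changed.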

Other observations

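Of 15 markers of luminal and basal mammary epithelium, 10 were tested, and among these 4 rose and 4 fell. This was 80% called, against 38.2% of all tested genes. The list repeats Krt7, Krt8, Krt18, Krt19, Epcam, Cldn3 and Cldn4 of the epithelial effector list. Most of its calls were therefore already counted there, and Krt17 and Esr1 were the called genes not shared. Its summed level ran from 3936 to 4068 CPM in DMSO and from 3441 to 3665 CPM in CEP, so it was lower in each CEP library. Krt7, Krt8 and Krt18, which all fell, made up most of this sum, and Esr1 was the other gene that fell. Krt19, Epcam, Cldn4 and Krt17 rose. Claudin-4, encoded by Cldn4 and chosen after its values were seen, stood at 95.7 ± 4.31 CPM in the DMSO libraries and 369 ± 82.7 CPM (mean ± SD, n = 3) in the CEP libraries, and rose (edgeR log2 fold change 1.95 ± 0.188, SE, adjusted p = 0.000925). Among basal marker genes, Krt5 and Trp63 had 0 to 5 counts per library, Krt14 had 90 to 128 and did not pass, and Krt17 had 28 to 99 and rose (edgeR log2 fold change 0.93 ± 0.286, adjusted p = 0.0196), with groups that overlapped.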
